A study of Mus musculus with 60 samples.

Results

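Fluoxetine was set against vehicle in the F (female) libraries of Tbr1 +/K228E heterozygous (HT) mice, a comparison of 10 libraries out of the 60 deposited. The 5 libraries of HT fluoxetine F and the 5 of HT vehicle F were taken by their titles. Libraries of M mice were not compared, because those of the vehicle M groups stood apart as a cluster. All mice of both groups were on the C57BL/6J strain and carried 1 Tbr1 allele with the K228E substitution, so a control without that allele is held only by the WT mice of the series. Pups received fluoxetine or vehicle through their mother's milk for 3 weeks, between postnatal days 3 and 24, and the prefrontal cortex was taken at day 25. RNA-seq was run with a stranded mRNA kit, and each value is a gene's read number divided by its library's size factor, called normalised reads here. The labels name no litter, dam, dissection day or batch, so the tests measure how far these samples scatter, which may be technical, and pups of a litter would share their treatment.

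Fluoxetine is a selective serotonin reuptake inhibitor, which blocks the transporter Slc6a4 on serotonin axons and so prolongs the action of serotonin on its receptors in the cortex. The early postnatal weeks are a time of synapse formation and circuit refinement in rodent cortex, and serotonin acts on both. Tbr1 encodes a transcription factor of the T-box family that sets the identity of deep cortical layers, and mutations in human TBR1 are linked to autism spectrum disorder. K228E changes an amino acid and does not remove the transcript, so the level of Tbr1 reads does not check the genotype label.

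Tbr1 (ENSMUSG00000035033, GRCm38 chr2:61802930-61814114) was read at 4742, 4994, 5238, 4619 and 5078 normalised reads in HT fluoxetine F, against 1167, 3168, 4304, 4980.0 and 4323 in HT vehicle F. HT fluoxetine F libraries lay close together, while HT vehicle F replicate 1 was far below all others and replicate 4 lay inside the fluoxetine range. The log2 difference of fluoxetine minus vehicle was 0.62 (SE 0.27, limma adjusted p = 0.193), and 0.25 without HT vehicle F replicate 1. It was 0.11 in a fit that carries the level of olfactory bulb genes, described below, as covariates.

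The libraries of the vehicle group differed from each other far more than those of the fluoxetine group. In a principal component analysis of the 10 libraries, the first component held 44.9% of the variance and placed HT vehicle F replicate 1 at 92.2, with the others between -33.1 and 18.8. The second held 8.93% and placed HT vehicle F replicate 2 at -42.2. Libraries held 23930164 to 36515331 reads over the whole series. The 5 fluoxetine libraries held 28107026, 30578025, 27749307, 31521346 and 27852739 reads in replicate order, and the 5 vehicle libraries held 28302649, 29736162, 36515331, 27923262 and 26939207.

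Much of that spread ran along genes of the olfactory bulb, a structure that borders the prefrontal cortex in the mouse. The mean of log2(value + 1) over 7 marker genes of the bulb (Cdhr1, Doc2g, Eomes, Shisa3, Tbx21, Th and Trh) was 6.55, 6.86, 3.85, 5.22 and 4.21 in HT fluoxetine F, against 10.95, 9.28, 8.56, 5.13 and 8.73 in HT vehicle F, in replicate order. Vehicle replicate 4 lay within the fluoxetine range and the other 4 vehicle libraries lay above it. Summed over the 7 markers, the level ran from 161 to 1397 normalised reads in fluoxetine libraries and from 364 to 23854 in vehicle libraries, with none of the 7 markers at 0 in any of the 10 libraries. The list's median log2 difference was -3.22, and it was -2.60 without vehicle replicate 1 and -4.20 without vehicle replicate 4. All 7 markers had a negative difference with an unadjusted p below 0.05, beside 10.8% of all genes, but no marker separated the groups. In such bulk samples, fewer cells of a type and less RNA per cell cannot be told apart. The bulb markers moved with most of the differences that follow, and their part in those results was not tested beyond a fit that carries the list's level as covariates, whose medians are plotted for every list and given in the text for several of them.

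**Figure D1:**
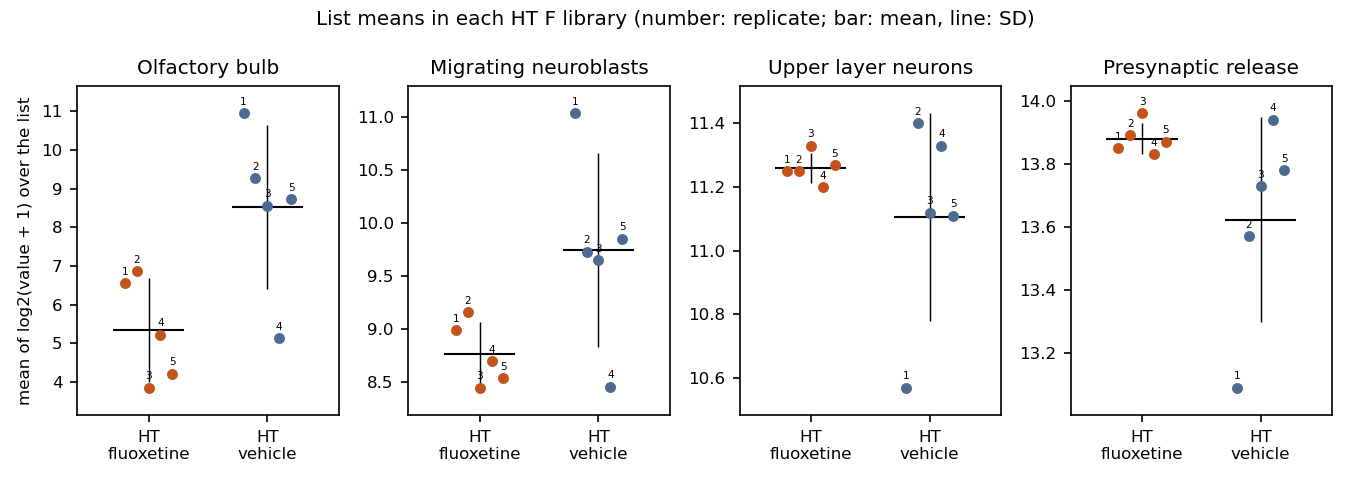
Mean of log2(value + 1) over the genes of 4 lists in each HT F library, fluoxetine on the left and vehicle on the right, with the replicate number above each point, the group mean as a bar and the SD as a line. In the olfactory bulb panel the fluoxetine libraries lie between 3.85 and 6.86 and the vehicle libraries between 5.13 and 10.95, and in the other panels vehicle replicate 1 lies at an end of the range.

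Over all genes, 0 of 17781 passed the adjusted threshold of 0.05 in limma (0%), and the smallest adjusted p was 0.107. At an unadjusted p below 0.05 there were 4063 genes (22.9% of those tested), 2151 with a positive difference (12.1%) and 1912 with a negative one (10.8%). edgeR on the recovered reads also called 0 genes, with 3781 at an unadjusted p below 0.05 (21.3%). With the bulb covariates limma called 0, with 647 at an unadjusted p below 0.05 (3.64%). In 622 genes (3.50%) the 5 fluoxetine values and the 5 vehicle values did not overlap, 290 of them with fluoxetine higher (1.63%) and 332 with fluoxetine lower (1.87%). These shares are the background against which the counts below are read.

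The count of called genes changed with the vehicle libraries used and with the fit. Without vehicle replicate 4, limma called 1027 genes (5.78%), 389 higher (2.19%) and 638 lower (3.59%) when the variance was fitted over the libraries of the whole series, and 1 gene (0.00562%) when it was fitted over the compared libraries only. Without vehicle replicate 1, limma called 0, with 1017 at an unadjusted p below 0.05 (5.72%). DESeq2 on all 10 libraries called 388 genes (2.23% of 17435), 45 higher (0.258%) and 343 lower (1.97%), but 1 (0.00562%) without vehicle replicate 1 and 1658 (9.70%) without vehicle replicate 4. With library quality weights, limma called 521 genes (2.93%), 187 higher (1.05%) and 334 lower (1.88%). Limma without vehicle replicate 4, DESeq2 on all 10 libraries and limma with weights called 266 genes in common, 39 higher and 227 lower, which are 68.6% of the DESeq2 calls, 51.1% of those with weights and 25.9% of those without vehicle replicate 4.

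The 10 genes with the smallest unadjusted p among those higher under fluoxetine were of varied function. Cdc25b (GRCm38 chr2:131186949-131198497), a phosphatase that activates cyclin-dependent kinases, had 459, 459, 450.1, 544 and 471 normalised reads in HT fluoxetine F, against 285, 370.2, 366, 397 and 384 in HT vehicle F. Every fluoxetine library was above every vehicle library, and vehicle replicate 1 was the lowest. Its log2 difference was 0.41 (SE 0.093, limma adjusted p = 0.107). Gpc4, a glypican that astrocytes release and that promotes excitatory synapses, had 463, 483, 456, 454 and 461 normalised reads in HT fluoxetine F, against 224, 354, 386, 431 and 364 in HT vehicle F. The fluoxetine values spanned a narrow band above all vehicle values, and the log2 difference was 0.43 (SE 0.11, limma adjusted p = 0.132). Sorcs3, a sorting receptor of neurons, had 1743, 1692, 1615, 1633 and 2048 normalised reads in HT fluoxetine F, against 1055, 1061, 1367, 1581 and 1458 in HT vehicle F, again with no overlap. For Sorcs3 the log2 difference was 0.43 (SE 0.11, limma adjusted p = 0.132).

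Gcnt4 (GRCm38 chr13:96924689-96950906), an enzyme that branches O-linked sugar chains, had the largest log2 difference of these 10. Its values were 426, 534, 501, 459 and 545 normalised reads in HT fluoxetine F, against 213, 374, 332, 432 and 312 in HT vehicle F, and the highest vehicle library, replicate 4, passed the lowest fluoxetine library. The log2 difference was 0.60 (SE 0.14, limma adjusted p = 0.107), and 0.45 without vehicle replicate 1. Dmp1, a secreted matrix phosphoprotein known from bone and dentin, had 188, 151, 175, 189 and 157 normalised reads in HT fluoxetine F, against 105, 129.7, 136, 145 and 110.0 in HT vehicle F. Its groups did not overlap, and the log2 difference was 0.46 (SE 0.11, limma adjusted p = 0.128). The other members were Slc9a9, a sodium/proton exchanger of endosomes (0.27), Rsph1, a radial spoke protein of motile cilia (0.54), Ing2, a reader of histone methylation (0.28), Utp4, a factor in making the small ribosomal subunit (0.22), and Psme3, a proteasome activator (0.14), each value a log2 difference. Of the 10, 8 separated the groups, all but Gcnt4 and Slc9a9.

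Among the 10 leading genes lower under fluoxetine, C1qtnf6 (GRCm38 chr15:78523346-78531416) had the smallest p of all named genes. This secreted protein of the C1q and tumour necrosis factor family had 112, 126, 103, 125 and 111 normalised reads in HT fluoxetine F, against 204, 153, 167, 158 and 146 in HT vehicle F. No fluoxetine library reached the lowest vehicle library, and the log2 difference was -0.51 (SE 0.11, limma adjusted p = 0.107). Dnmt3a (GRCm38 chr12:3806007-3914443), the enzyme that places new DNA methylation in maturing neurons, had 4139, 4315, 4271, 4367 and 3969 normalised reads in HT fluoxetine F, against 6629, 4789, 4928, 4865 and 5244 in HT vehicle F. The fluoxetine values lay below all vehicle values, with vehicle replicate 1 far above the rest. Dnmt3a had a log2 difference of -0.32 (SE 0.069, limma adjusted p = 0.107), and -0.23 without that library.

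Mkrn3 (GRCm38 chr7:62417593-62420139), an imprinted ubiquitin ligase gene known as a brake on puberty, had 55.5, 63.4, 50.5, 79.8 and 56.5 normalised reads in HT fluoxetine F, against 202, 103, 119, 83.8 and 103 in HT vehicle F. All vehicle libraries were higher than all fluoxetine libraries, though vehicle replicate 4 stood only just above fluoxetine replicate 4. Its log2 difference was -0.94 (SE 0.21, limma adjusted p = 0.107). Id1, an inhibitor of basic helix-loop-helix transcription factors and a target of bone morphogenetic protein signalling, had 269, 304, 308, 334 and 285 normalised reads in HT fluoxetine F, against 453, 511, 399, 385 and 343 in HT vehicle F, without overlap. Id1 thus had a log2 difference of -0.47 (SE 0.11, limma adjusted p = 0.128). It was -0.44 without vehicle replicate 1 and -0.44 with the bulb covariates, close to the value over all libraries.

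Idh1, the cytosolic isocitrate dehydrogenase, had 986, 896, 959.5, 909 and 898 normalised reads in HT fluoxetine F, against 1436, 1039, 1190.0, 1008 and 1180.0 in HT vehicle F, with every fluoxetine library lower. Chrna3, a nicotinic receptor subunit, had 23.0, 24.4, 16.5, 21.6 and 16.0 normalised reads in HT fluoxetine F, against 193, 140.1, 69.8, 23.9 and 60.9 in HT vehicle F, and vehicle replicate 4 lay within the fluoxetine range. The log2 differences were -0.32 for Idh1 and -1.90 for Chrna3, and the bulb covariates took them to -0.20 and -0.59. The remaining members were Itpkb, a kinase of inositol trisphosphate (-0.31), Ctsl, a lysosomal protease (-0.28), Adamts9, a secreted metalloprotease (-0.71), and Slc31a1, the copper importer of the plasma membrane (-0.24), as log2 differences. Of these 10 genes, 9 separated the groups, Chrna3 being the exception.

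These 20 genes were chosen by their p in this comparison, so their counts describe them and test nothing. Limma adjusted p ran from 0.107 to 0.132 over all libraries, from 0.0195 to 0.0315 without vehicle replicate 4, and was 0.85 for each without vehicle replicate 1. With the bulb covariates it was 1.0 for each of them. Each of the 20 log2 differences was smaller in size with those covariates than over all libraries. Among the higher genes they became 0.21 for Cdc25b, 0.24 for Gpc4, 0.29 for Sorcs3, 0.33 for Gcnt4 and 0.31 for Dmp1. Among the lower genes they became -0.32 for C1qtnf6, -0.18 for Dnmt3a and -0.44 for Mkrn3.

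**Figure D2:**
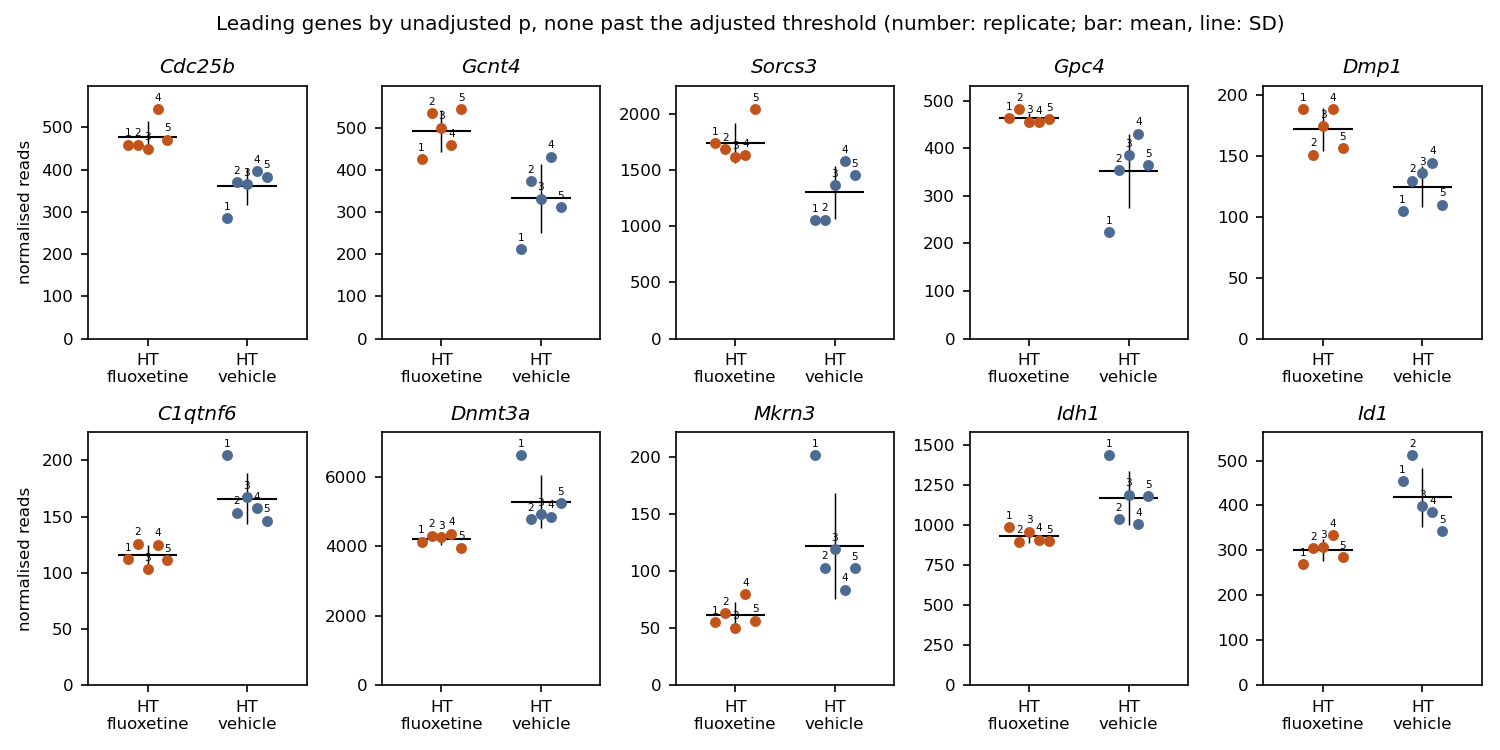
Normalised reads of 10 of the 20 leading genes in each HT F library, 5 higher under fluoxetine in the upper row and 5 lower in the lower row, on axes that start at 0, with the group mean as a bar and the SD as a line. Fluoxetine libraries cluster tightly, and vehicle replicate 1 is the vehicle library farthest from them in most panels.

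The largest log2 differences belonged to genes of the bulb. Tbx21, a T-box factor of its mitral and tufted cells, had 18.8, 18.5, 3.29, 6.57 and 2.13 normalised reads in HT fluoxetine F, against 579, 228.2, 116, 8.70 and 114 in HT vehicle F. Vehicle replicate 4 lay among the fluoxetine libraries and the other 4 vehicle libraries stood well above them. Eomes, a T-box factor of the same cells and of cortical progenitors, had 61.7, 59.5, 2.20, 16.9 and 4.27 normalised reads in HT fluoxetine F, against 1133, 385, 220.5, 11.97 and 264 in HT vehicle F. Scgn, a calcium-binding protein of bulb interneurons, had 40.8, 30.2, 1.10, 11.3 and 2.13 normalised reads in HT fluoxetine F, against 634, 255, 139, 9.79 and 138 in HT vehicle F, where vehicle replicate 4 again lay among the fluoxetine libraries. The log2 differences were -3.75 for Tbx21 (limma adjusted p = 0.138), -3.63 for Eomes and -3.66 for Scgn. Ms4a15 (-3.51) and Doc2g (-3.31) completed this group, and Doc2g is a member of the bulb list.

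On the higher side, the largest differences were mostly of low or uneven genes. mt-Co3, the mitochondrially encoded cytochrome oxidase subunit, had 43972, 20473, 35616, 38259 and 16361 normalised reads in HT fluoxetine F, against 39097, 4377, 35247, 8745 and 4883 in HT vehicle F, a wide scatter within each group. Npsr1, the neuropeptide S receptor, had 149.6, 128, 122, 135 and 156 normalised reads in HT fluoxetine F, against 21.0, 45.5, 104, 115 and 135 in HT vehicle F, where vehicle replicates 1 and 2 were low and replicate 5 reached the fluoxetine range. Map3k21, a mixed-lineage kinase, had 132, 128, 122, 129 and 111 normalised reads in HT fluoxetine F, against 23.7, 75.8, 101, 95.7 and 71.6 in HT vehicle F, with every fluoxetine value above every vehicle value. The log2 differences were 1.26 for mt-Co3, 0.98 for Npsr1 and 0.90 for Map3k21 (limma adjusted p = 0.147 for Map3k21). Klhl14 (1.12) and Nphs1 (0.86) were the remaining members, and both overlapped between groups.

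Genes of migrating neuroblasts, which travel to the bulb and become its interneurons, went with the bulb markers. Of 12 genes measured, 8 had an unadjusted p below 0.05, all with a negative difference, beside 10.8% of all genes in that direction. The median log2 difference was -1.10, beside 0.00733 over all genes, and 0.0692 with the bulb covariates. Dlx6, a homeobox factor of inhibitory neuron precursors, had 75.3, 109, 56.0, 66.7 and 67.2 normalised reads in HT fluoxetine F, against 368, 185, 136, 72.9 and 157 in HT vehicle F. Only vehicle replicate 4 overlapped the fluoxetine libraries, as it did for Dlx1 (-1.42), Dlx5 (-1.25) and Sp9 (-1.62), given as log2 differences. Without vehicle replicate 4, limma called 7 of the 12 lower.

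Among other neighbouring tissues, striatal genes showed 0 of 12 at an unadjusted p below 0.05, with sums of 7000 to 8274 normalised reads in fluoxetine libraries and 7065 to 10813 in vehicle libraries. Choroid plexus genes showed 3 of 7, all with a negative difference, beside 10.8% of all genes. Their sums were 175 to 290 in fluoxetine libraries and 210 to 606 in vehicle libraries. In the meninges list, 2 of 10 genes had an unadjusted p below 0.05, both negative, beside 10.8% of all genes. They were Col3a1 (-0.58) and Col1a2 (-0.29), both fibrillar collagens. Red blood cell genes and proliferation genes each showed none.

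Glial lists had medians near 0. Microglial genes showed 5 of 12 at an unadjusted p below 0.05 with a positive difference, beside 12.1% of all genes, and a median log2 difference of 0.15, which was 0.072 without vehicle replicate 1 and 0.0493 with the bulb covariates. Cx3cr1, the fractalkine receptor, had 1363, 1467, 1486, 1725 and 1487 normalised reads in HT fluoxetine F, against 987, 1321, 1396, 1538 and 1353 in HT vehicle F. Most vehicle libraries lay inside or just below the fluoxetine range, and replicate 1 was far below it. Siglech (0.30), Trem2 (0.16) and Csf1r (0.14), receptors of the microglial surface, were next by p, on the same log2 scale. Astrocyte genes split, with Sox9, a glial transcription factor, at 0.34 and Gfap, the intermediate filament of reactive astrocytes, at -0.51. With the bulb covariates these were 0.27 for Sox9 and -0.12 for Gfap.

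Gfap had 3448, 3410.0, 2857, 3273 and 3483 normalised reads in HT fluoxetine F, against 6150.0, 6182, 4344, 3274 and 4167 in HT vehicle F, so vehicle replicate 4 matched the fluoxetine libraries and the other vehicle libraries were higher. Aqp4, the water channel of astrocyte endfeet (-0.33), and Gja1, the gap junction connexin (-0.22), also had an unadjusted p below 0.05. None of the 12 oligodendrocyte genes or the 8 precursor genes did. The oligodendrocyte mean was 10.81 in vehicle replicate 2, the lowest of the 10 libraries, and 11.40 to 12.21 in the others. The endothelium and pericyte list was split, with 5 positive and 5 negative differences and a median of -0.036. Of its 10 genes, 2 had an unadjusted p below 0.05, both negative, beside 10.8% of all genes, while Flt1 stood at 0.15. The lowest was Cldn5, a tight junction protein of the blood-brain barrier. Cldn5 had 1118, 961, 1001, 1163 and 1049 normalised reads in HT fluoxetine F, against 1577, 1409, 1260.0, 1175 and 1167 in HT vehicle F. Its groups did not overlap, the log2 difference was -0.31 (SE 0.10, limma adjusted p = 0.156), and it was -0.25 with the bulb covariates.

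Markers of cortical neurons were present in every library. Slc17a7, the vesicular glutamate transporter of cortical excitatory neurons, named after its values were seen, had 52582, 54902, 57650.0, 54191 and 53492 normalised reads in HT fluoxetine F, against 25395, 46613, 51175, 59118 and 50129 in HT vehicle F. Vehicle replicate 1 was the lowest library and vehicle replicate 4 the highest. Upper layer genes had 3 of 10 members at an unadjusted p below 0.05 and a positive difference, beside 12.1% of all genes. They were Rorb (0.40), Unc5d (0.41) and Lamp5 (0.43). Mdga1, an adhesion protein on the same list, went the other way at -1.07, which was -0.27 with the bulb covariates. The list's median was 0.303 over all libraries, 0.0886 without vehicle replicate 1 and 0.0175 with the bulb covariates.

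In layer 5, Fezf2, the selector of subcerebral projection neurons, had 932, 965, 1001, 956 and 897 normalised reads in HT fluoxetine F, against 189.8, 532, 790.3, 992 and 785 in HT vehicle F. Its log2 difference was 0.73, which was 0.33 without vehicle replicate 1 and 0.11 with the bulb covariates. Fezf2 alone of 10 list members had an unadjusted p below 0.05, beside 12.1% of all genes with a positive difference. Layer 6 and subplate genes pointed both ways. At that limit 1 of 11 members was positive and 3 were negative, beside 12.1% and 10.8% of all genes. Among the negative ones, the log2 differences of Syt6 (-1.31) and Nxph4 (-1.49) became -0.12 and -0.22 with the bulb covariates. Foxp2, a forkhead factor of layer 6 and a known target of Tbr1 in mouse cortex, was named after its values were seen and had 214, 223, 221, 215 and 181 normalised reads in HT fluoxetine F, against 425, 331, 298, 277 and 374 in HT vehicle F. All vehicle libraries exceeded all fluoxetine libraries, vehicle replicate 4 included. The log2 difference of Foxp2 was -0.68 (SE 0.25, limma adjusted p = 0.166), -0.60 without vehicle replicate 1 and -0.41 with the bulb covariates. Foxp2 is also expressed in striatum and bulb. The striatum list had 5 positive and 7 negative differences and a median of -0.244, with 0 of 12 genes at an unadjusted p below 0.05. Its lowest member, Drd2, had a log2 difference of -0.96 (limma adjusted p = 0.345), and -1.10 with the bulb covariates. The part of other tissue in the Foxp2 value was not tested beyond those covariates.

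Interneuron genes showed 1 of 12 positive and 5 negative at an unadjusted p below 0.05, beside 12.1% and 10.8% of all genes. Calb2, the calcium buffer calretinin, had 579, 720.5, 229, 370.0 and 262 normalised reads in HT fluoxetine F, against 8078, 3503, 2066, 323 and 2110.0 in HT vehicle F, the same library order as the bulb markers. Gad1, the main enzyme of GABA synthesis, had 8051, 8187, 6898, 6801 and 6720.0 normalised reads in HT fluoxetine F, against 31441, 10622, 10006, 7027 and 11260.0 in HT vehicle F, with vehicle replicate 1 several times above every other library. The log2 differences of Gad1 (-0.73), Gad2 (-0.38) and Reln (-0.59) became -0.077, -0.078 and 0.00020 with the bulb covariates.

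Genes of serotonin signalling were examined because the drug acts on serotonin reuptake. The transporter Slc6a4 and the receptor Htr2b are not in the table of values analysed here, so 15 of 17 list genes were measured. At an unadjusted p below 0.05, 4 had a positive and 2 a negative difference, beside 12.1% and 10.8% of all genes. No member separated the groups. The list's median log2 difference was 0.106, and 0.00398 with the bulb covariates. Htr2a, the main excitatory serotonin receptor of cortical pyramidal neurons, had 1550.0, 1802, 1831, 1432 and 1887 normalised reads in HT fluoxetine F, against 753, 1452, 1309, 1433 and 1358 in HT vehicle F. Vehicle replicate 1 was the lowest by far, and vehicle replicates 2 and 4 lay inside the fluoxetine range. For Htr2a the log2 difference was 0.46 (SE 0.18, limma adjusted p = 0.171), 0.29 without vehicle replicate 1 and 0.085 with the bulb covariates.

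Htr4, a receptor coupled to cyclic AMP, was read at low levels of 40.8, 36.1, 25.2, 18.8 and 25.6 normalised reads in HT fluoxetine F, against 0.912, 4.73, 20.4, 23.9 and 34.2 in HT vehicle F. Its log2 difference was 1.34 (SE 0.54, limma adjusted p = 0.176), and 0.69 without vehicle replicate 1. Htr1f, an inhibitory receptor, had 71.2, 70.2, 70.3, 70.4 and 56.5 normalised reads in HT fluoxetine F, against 147, 84.3, 80.8, 67.5 and 97.2 in HT vehicle F, with vehicle replicate 4 inside the fluoxetine range. Slc18a2, the vesicular monoamine transporter, had 9.42, 13.7, 5.49, 7.51 and 13.9 normalised reads in HT fluoxetine F, against 101, 37.9, 33.8, 10.9 and 35.2 in HT vehicle F. The log2 differences of Htr1f and Slc18a2 were -0.44 and -1.78. Both were lowest among vehicle libraries in replicate 4 and highest in replicate 1, as the bulb markers were. Without vehicle replicate 1 they were -0.27 and -1.40, and -0.091 and -0.40 with the bulb covariates.

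The receptors best known from studies of this drug class were named after their values were seen. Htr1a, the inhibitory autoreceptor and cortical receptor, had 642, 640.5, 602, 617 and 683 normalised reads in HT fluoxetine F, against 206, 444, 589, 639 and 575 in HT vehicle F. Htr2c had 1408, 1273, 1134, 1193 and 1363 normalised reads in HT fluoxetine F, against 177, 652, 1265, 839.8 and 1355 in HT vehicle F, with vehicle replicates 3 and 5 inside the fluoxetine range. The log2 differences were 0.48 for Htr1a, 0.86 for Htr2c, 0.49 for Htr1b and -0.12 for Htr7. Their limma adjusted p was 0.222 or more, and without vehicle replicate 1 the same values were 0.19, 0.37, 0.18 and -0.075.

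Receptors for dopamine and noradrenaline had the highest median of the 32 lists, 0.449 over 12 genes, which was 0.209 without vehicle replicate 1 and 0.102 with the bulb covariates. Of them, 4 had an unadjusted p below 0.05, all positive, beside 12.1% of all genes. Adra2c, an inhibitory noradrenaline receptor, had 413, 421, 456, 415 and 451 normalised reads in HT fluoxetine F, against 214, 313, 330.4, 409 and 376 in HT vehicle F. Fluoxetine values lay above all vehicle values, though vehicle replicate 4 came within a few reads of them. Adra2c had a log2 difference of 0.42 (SE 0.16, limma adjusted p = 0.165). Adrb1 (0.50) and Adra1d (0.37), receptors that activate neurons or glia, were among the others, as log2 differences. With the bulb covariates they were 0.17 for Adra2c, 0.12 for Adrb1 and 0.084 for Adra1d.

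Bdnf, the neurotrophin most often studied with antidepressants, had 885, 1061, 1074, 938 and 1135 normalised reads in HT fluoxetine F, against 333, 953, 734, 949.7 and 745 in HT vehicle F. Vehicle replicate 1 was lowest by a wide margin, and replicates 2 and 4 lay inside the fluoxetine range. Its log2 difference was 0.54 (SE 0.20, limma adjusted p = 0.169), 0.27 without vehicle replicate 1 and 0.16 with the bulb covariates. Vgf, a secreted neuropeptide precursor regulated by neurotrophins, had 6387, 6987, 7541, 6213 and 6734 normalised reads in HT fluoxetine F, against 2761, 4527, 5462, 6896 and 5762 in HT vehicle F and a log2 difference of 0.48, which was 0.17 with those covariates. Sort1, a sorting receptor for pro-neurotrophins, stood at 0.26 (0.031 with the covariates), and the low-level factor Gdnf at -1.48 (0.11 with them). In all, 4 of 9 list genes were positive and 2 negative at an unadjusted p below 0.05, beside 12.1% and 10.8% of all genes.

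Activity-regulated genes, which neurons switch on within minutes of firing, showed 1 of 20 at that limit, beside 22.9% of all genes. The one was Atf3, a stress factor, with a log2 difference of -1.46 and a single high value of 413 in vehicle replicate 1. Atf3 was 0.073 with the bulb covariates. Egr4 (0.41) and Dusp6 (0.31) were next by p. The list's median was 0.156 over all libraries, 0.220 without vehicle replicate 1, 0.0891 without vehicle replicate 4 and 0.332 with the bulb covariates, and it was -0.170 in WT F. Genes induced by glucocorticoids or FOXO factors gave 3 positive and 2 negative of 14, beside 12.1% and 10.8% of all genes. Depp1, a FOXO target, had 109, 52.6, 92.2, 81.7 and 93.9 normalised reads in HT fluoxetine F, against 50.2, 36.9, 33.8, 79.4 and 50.2 in HT vehicle F. The overlap came from fluoxetine replicate 2, which was below vehicle replicate 4. The log2 difference of Depp1 was 0.79 (SE 0.27, limma adjusted p = 0.156), 0.81 without vehicle replicate 1 and 0.78 with the bulb covariates. Fkbp5, a co-chaperone of the glucocorticoid receptor, stood at -0.35, and Sgk1, a kinase that glucocorticoids induce, at 0.39.

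Cationic drugs of this kind accumulate in lysosomes and can alter lipid handling, so both gene groups were examined. Of 16 lysosomal genes, 4 had an unadjusted p below 0.05, all positive, beside 12.1% of all genes. Ctsl, a lysosomal protease outside this list, went the other way at -0.28, with every fluoxetine library lower. Pla2g15, the lysosomal phospholipase that such drugs inhibit, had 802, 744, 749, 731 and 738 normalised reads in HT fluoxetine F, against 582, 639, 706, 685 and 703 in HT vehicle F. Its groups did not overlap, with fluoxetine replicate 1 the highest and vehicle replicate 1 the lowest. Pla2g15 had a log2 difference of 0.19 (SE 0.057, limma adjusted p = 0.145), 0.14 without vehicle replicate 1 and 0.12 with the bulb covariates. Ctsb (0.13), Atp6v1h (0.24) and Ctsd (0.085) were the others, of which Ctsb and Ctsd turned negative under quantile normalization. Without vehicle replicate 1 these were 0.074 for Ctsb, 0.12 for Atp6v1h and 0.042 for Ctsd, and with the bulb covariates they were 0.0048, 0.016 and -0.0027, in that order of genes. The lysosomal median was 0.0651 over all libraries, 0.0293 without vehicle replicate 1 and 0.0014 with the bulb covariates. Cholesterol synthesis genes gave 1 of 16, which was Idi1 at -0.20, beside 10.8% of all genes in that direction.

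Perineuronal nets, the matrix around fast-spiking interneurons, have been studied as a target of fluoxetine. Of 12 net genes, 2 were positive and 3 negative at an unadjusted p below 0.05, beside 12.1% and 10.8% of all genes. Acan, the aggrecan core of the net, had 106, 122, 79.0, 82.7 and 96.0 normalised reads in HT fluoxetine F, against 605, 124, 163, 109 and 144 in HT vehicle F, and vehicle replicate 1 was several times above every other library. Its log2 difference was -0.91, -0.47 without that library and -0.020 with the bulb covariates. Hapln4, a link protein, stood at 0.57, and Tnr, a matrix tenascin, at 0.28, and with the bulb covariates they were 0.041 and 0.043.

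Synaptic lists had positive medians over all libraries, which were smaller without vehicle replicate 1. Of 23 presynaptic release genes, 10 had an unadjusted p below 0.05, all positive, beside 12.1% of all genes, and 22 of 23 differences were above 0. The median log2 difference was 0.231, which was 0.111 without vehicle replicate 1 and 0.00506 with the bulb covariates. Snap25, a SNARE protein of the release machinery, had 65271, 67071, 69868, 60136 and 65554 normalised reads in HT fluoxetine F, against 38760.0, 49926, 57016, 62817 and 55592 in HT vehicle F. Vehicle replicate 4 lay within the fluoxetine range and replicate 1 lowest. Vamp1, the vesicle SNARE of fast-spiking neurons, had 2719, 2568, 2762, 2678 and 2595 normalised reads in HT fluoxetine F, against 1309, 1734, 2248, 2567 and 2317 in HT vehicle F, and its groups did not overlap, though vehicle replicate 4 came within a few reads. Vamp1 had a log2 difference of 0.43 (SE 0.15, limma adjusted p = 0.161).

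Of 28 excitatory synapse genes, 9 were positive and 1 negative at the same limit, beside 12.1% and 10.8% of all genes. Both shares also stand beside the inhibitory, channel and autism counts that follow. The excitatory median was 0.178, which was 0.0771 without vehicle replicate 1. Nlgn1, a postsynaptic adhesion protein, had 2288, 2376, 2277, 2089 and 2484 normalised reads in HT fluoxetine F, against 1241, 2034, 1981, 2121 and 1950.0 in HT vehicle F. Gria3, an AMPA receptor subunit (0.40), and Grin2b, an NMDA receptor subunit (0.29), were close in size to Nlgn1 (0.33). Inhibitory synapse genes gave 6 positive and 1 negative of 16, among them Slc12a5, the neuronal chloride exporter, at 0.24. Of 22 potassium and sodium channel genes, 8 were positive and 2 negative, including the sodium channel subunit Scn8a (0.39). Of 20 autism risk genes, 6 were positive and 1 negative, with a median of 0.0291. Foxp1, a forkhead factor on that list, stood at 0.45. With the bulb covariates, the medians were 0.0192 for excitatory, -0.0107 for inhibitory and 0.0195 for channel genes.

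**Figure D3:**
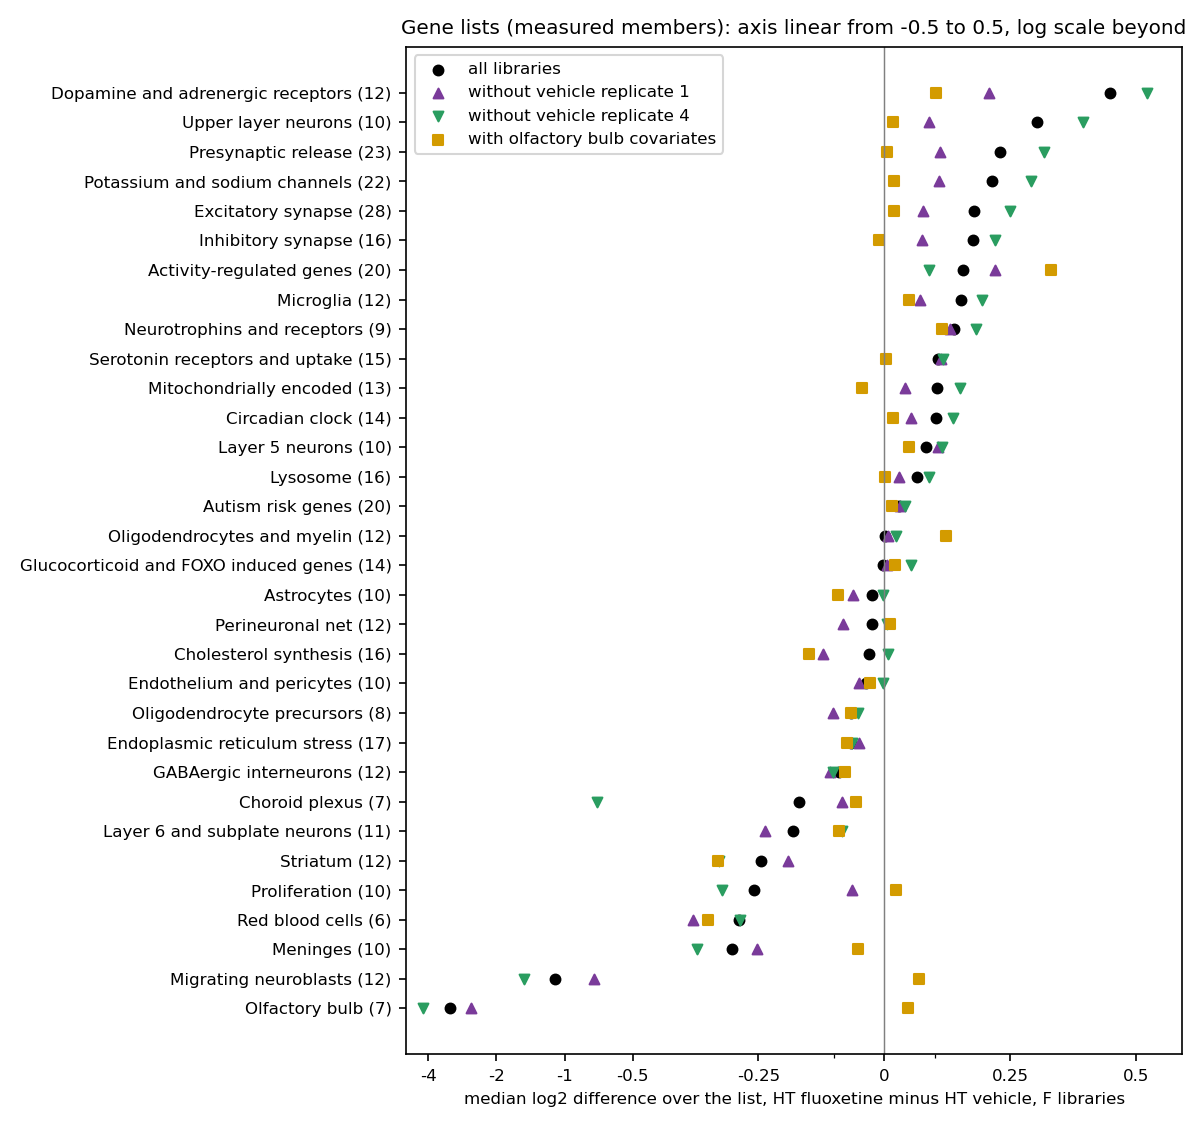
Median log2 difference of HT fluoxetine F minus HT vehicle F over each of the 32 gene lists, with the number of measured members in brackets, for all libraries, without vehicle replicate 1, without vehicle replicate 4, and with olfactory bulb covariates. The axis is linear between -0.5 and 0.5 and logarithmic beyond. The synaptic lists lie above 0 over all libraries and near 0 with the covariates. Lists whose median keeps nearly the same place in all 4 settings include endoplasmic reticulum stress and GABAergic interneurons. The interneuron list holds 6 positive and 6 negative differences, so its median does not show that its members kept their place. With the covariates, Calb2 went from -2.41 to -0.28 and Gad1 from -0.73 to -0.077.

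Genes of the endoplasmic reticulum (ER) stress response set the libraries of the 2 groups apart by a small margin in their mean. These genes encode chaperones and enzymes that fold secreted and membrane proteins, and many are induced when unfolded proteins gather. Their mean of log2(value + 1) was 10.09, 10.16, 10.21, 10.14 and 10.12 in fluoxetine libraries, against 10.31, 10.27, 10.22, 10.30 and 10.27 in vehicle libraries, in replicate order. Every fluoxetine library was below every vehicle library. This held for 1 of the 32 lists, beside 3.50% of all genes whose groups did not overlap in either direction. The lists were chosen with earlier results of these data known, so the separation describes this list and tests nothing. The gap between the nearest libraries, fluoxetine replicate 3 and vehicle replicate 3, was small. It rested in part on Trib3, a gene of few reads that had the list's lowest log2 difference, -0.84. Each member counts alike in this mean, and the separation without Trib3 was not tested. Of 17 genes, 5 had an unadjusted p below 0.05, all negative, beside 10.8% of all genes, and 3 separated the groups, beside 1.87%. The list's median was -0.067 over all libraries, -0.049 without vehicle replicate 1, -0.064 without vehicle replicate 4, -0.074 with the bulb covariates and -0.024 with library quality weights.

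Hspa5 (GRCm38 chr2:34771970-34777547), the master chaperone BiP, had 5794, 6171, 6320.0, 6105 and 5995 normalised reads in HT fluoxetine F, against 7798, 6900.0, 6714, 7209 and 7080.0 in HT vehicle F. No libraries overlapped, and vehicle replicate 4 was the second highest of all. Vehicle replicate 1 was the highest library both for Hspa5 and in the bulb list mean. Vehicle replicate 4 lay within the fluoxetine range in the means of the bulb and presynaptic release lists. The part of other tissue in the Hspa5 value was not tested beyond the bulb covariates. The log2 difference of Hspa5 was -0.23 (SE 0.077, limma adjusted p = 0.156), -0.20 without vehicle replicate 1 and -0.17 with the bulb covariates. Pdia4 (GRCm38 chr6:47796141-47813430), a disulfide isomerase, had 797, 965, 1015, 918 and 916 normalised reads in HT fluoxetine F, against 1275, 1081, 1056, 1143 and 1120.0 in HT vehicle F, again without overlap. The log2 difference of Pdia4 was -0.30 (SE 0.093, limma adjusted p = 0.147), -0.26 without vehicle replicate 1 and -0.24 with the bulb covariates. Trib3, a pseudokinase induced late in the response, was named after its values were seen and was read at only 4.19, 4.88, 6.59, 6.57 and 5.33 normalised reads in HT fluoxetine F, against 7.30, 10.4, 10.2, 14.1 and 11.8 in HT vehicle F.

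Creld2, a secreted ER protein, had 265, 329.5, 317, 269.5 and 257 normalised reads in HT fluoxetine F, against 431, 370.2, 314, 354 and 327 in HT vehicle F, so fluoxetine replicates 2 and 3 crossed the lowest vehicle library. Xbp1, the transcription factor that drives chaperone genes, had 1651, 1672, 1856, 1768 and 1607 normalised reads in HT fluoxetine F, against 1893, 2022, 1805, 1846 and 1740.0 in HT vehicle F, with fluoxetine replicates 3 and 4 inside the vehicle range. The log2 differences were -0.84 for Trib3, -0.32 for Creld2 and -0.12 for Xbp1. Other chaperones, named after their values were seen, differed less, with Hsp90b1 at 0.058, Pdia6 at -0.039, Dnajc3 at -0.067 and Calr at -0.011, and Hsp90b1 turned negative under quantile normalization. No gene of the list passed the adjusted threshold in limma with all libraries (smallest adjusted p = 0.147), without vehicle replicate 4, or in DESeq2.

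**Figure D4:**
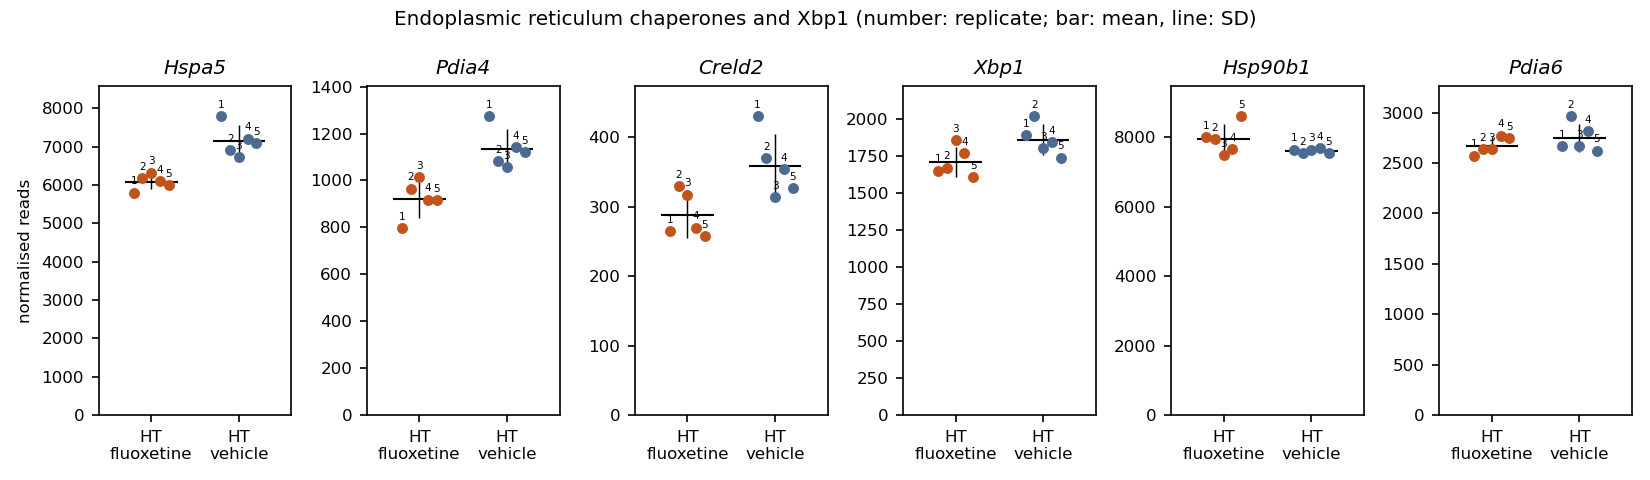
Normalised reads of 6 ER genes in each HT F library, fluoxetine on the left and vehicle on the right, on axes that start at 0, with the group mean as a bar and the SD as a line. Hspa5 and Pdia4 separate the groups in every library, while Creld2, Xbp1, Hsp90b1 and Pdia6 overlap in part.

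As 12 of the 17 genes had a negative difference, their promoters were read for the ER stress element, searched on both strands as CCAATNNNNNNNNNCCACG. Of the 17 genes, 15 had an entry in the RefSeq promoter table (GRCm38.p6, 250 bases before to 50 after the start), and 6 of the 15 held the element: Hspa5, Hsp90b1, Pdia6, Dnajc3, Creld2 and Calr. Over all 32851 promoters of that table, 39 held it (0.119%). The list was chosen as genes of this stress response and the element is named for it. Its share in the list therefore describes the list and tests nothing of fluoxetine. The promoters of the 2 element-bearing genes with the smallest p are shown, with the element in capitals. Hspa5 is at chr2:34771840-34772139 on the plus strand, with the element's first base at position -65 from the start. Creld2 is at chr15:88819396-88819695 on the plus strand, with the element on the opposite strand. The first base in capitals, at position -126, is thus the element's last base.
Hspa5: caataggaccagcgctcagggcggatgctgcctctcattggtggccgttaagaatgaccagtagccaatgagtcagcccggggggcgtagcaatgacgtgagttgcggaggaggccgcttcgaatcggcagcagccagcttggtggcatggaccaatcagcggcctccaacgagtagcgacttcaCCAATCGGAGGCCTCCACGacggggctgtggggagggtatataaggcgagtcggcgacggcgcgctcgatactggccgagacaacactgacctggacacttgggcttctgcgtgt
Creld2: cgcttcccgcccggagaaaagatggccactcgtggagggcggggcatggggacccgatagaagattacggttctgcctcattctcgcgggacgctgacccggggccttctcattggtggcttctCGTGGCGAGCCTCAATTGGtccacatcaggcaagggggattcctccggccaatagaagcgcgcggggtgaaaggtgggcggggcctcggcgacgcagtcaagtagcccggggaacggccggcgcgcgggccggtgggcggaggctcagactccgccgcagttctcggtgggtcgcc
Of the 6 genes with the element, 5 had a negative log2 difference, beside 12 of the 17 genes of the list. The 5 include Pdia6 at -0.039 and Calr at -0.011, and Hsp90b1 was positive at 0.058. Pdia4, the gene of the list with the smallest p, held none in this window. A match describes letters only and says nothing of whether the factor was bound.

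Mitochondrially encoded genes included both signs. mt-Atp8 had 14787, 15297, 15744, 15975 and 15595 normalised reads in HT fluoxetine F, against 10383, 13576, 12825, 13667 and 11867 in HT vehicle F, with every fluoxetine library higher, and mt-Atp6, named after its values were seen, had 13184, 9310.0, 10460.0, 12046 and 12161 normalised reads in HT fluoxetine F, against 16027, 18336, 15826, 18379 and 17035 in HT vehicle F, with every fluoxetine library lower. These 2 subunits of ATP synthase lie on overlapping stretches of the mitochondrial genome, so reads could be split between them and both values are uncertain. The log2 differences were 0.32 for mt-Atp8 (limma adjusted p = 0.138) and -0.59 for mt-Atp6 (limma adjusted p = 0.221). Clock genes showed 4 of 14 at an unadjusted p below 0.05, all positive, beside 12.1% of all genes. Ciart, a repressor of the clock, had 599.6, 518, 588, 514 and 426 normalised reads in HT fluoxetine F, against 328, 471, 368, 526 and 416 in HT vehicle F and a log2 difference of 0.34. Npas2 (0.41), Nr1d1 (0.24) and Cry2 (0.13) were the others. Without vehicle replicate 1, Npas2 was 0.18 and Cry2 0.070. With the bulb covariates the values were 0.15 for Ciart, 0.042 for Npas2, 0.058 for Nr1d1 and 0.015 for Cry2. The clock list's median was 0.103 over all libraries, 0.0541 without vehicle replicate 1 and 0.018 with the covariates.

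The same treatment in F mice of the WT genotype, with no libraries in common, gave larger differences in the same direction for most genes. In WT F, limma called 7084 genes (39.8%), 3710 higher (20.9%) and 3374 lower (19.0%). Across the 17781 genes, which are not independent replicates, the log2 differences in HT F and WT F correlated at r = 0.781 and shared their sign in 83.8%. The median absolute difference was 0.134 in HT F and 0.211 in WT F, and 76.6% of genes had the smaller one in HT F. Of the 622 genes whose HT groups did not overlap, 614 had the same sign in WT F and 495 were called there. The olfactory bulb list also differed between the WT groups, with a median of -3.22 in HT F, against -5.15 in WT F, so its level moves with both results, and its part in their likeness was not tested.

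A test of the difference itself, the interaction of genotype with fluoxetine in F libraries, called 0 genes in limma (0%), with 508 at an unadjusted p below 0.05 (2.86%) and a smallest adjusted p of 0.906. edgeR also called 0, with 488 at an unadjusted p below 0.05 (2.74%). DESeq2 called 2 genes (0.0112%), and limma with library quality weights called 2752 (15.5%), so the count of calls depends on the fit. The limma count at an unadjusted p below 0.05 was 2645 (14.9%) without HT vehicle F replicate 1, 327 (1.84%) without HT vehicle F replicate 4 and 845 (4.75%) without WT vehicle F replicate 4, each with 0 genes past the adjusted threshold. A p that misses the threshold does not show that the genotypes respond alike. The 20 leading genes all kept their sign in WT F, and 19 were called there, Dmp1 being the exception. Hspa5 stood at -0.23 in HT F and -0.20 in WT F (interaction, limma adjusted p = 0.953), and Pdia4 at -0.30 in HT F and -0.32 in WT F (interaction, limma adjusted p = 0.978).

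The 5 genes with the smallest interaction p were Map4k1, R3hcc1l, Txnl4b, Whrn and Trpc7. Map4k1, a kinase of immune cell signalling, had 50.2, 52.6, 32.9, 49.8 and 48.0 normalised reads in HT fluoxetine F, against 46.5, 51.1, 62.8, 59.8 and 57.7 in HT vehicle F, and its log2 difference was -0.26 in HT F against 0.53 in WT F (interaction, limma adjusted p = 0.906). Txnl4b, a protein related to splicing factors, stood at -0.15 in HT F against 0.14 in WT F. Whrn, a scaffold of sensory and axonal junctions, stood at -0.065 against -0.32, and Trpc7, a cation channel, at 0.038 against -0.56. For R3hcc1l the values were 0.078 and -0.22. The smallest adjusted p over all of these was 0.906.

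**Figure D5:**
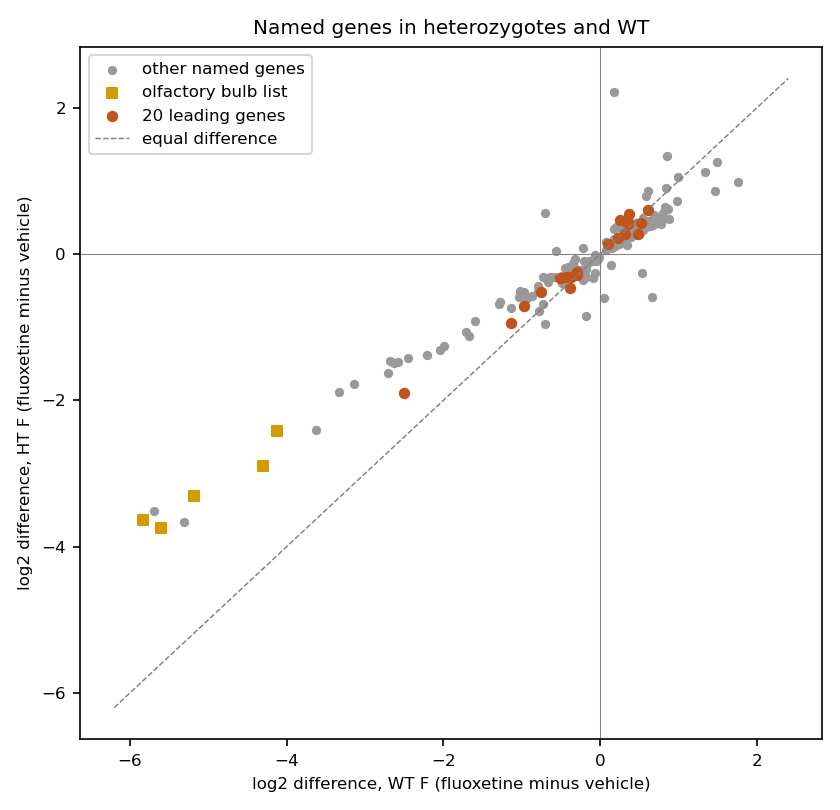
Log2 difference of fluoxetine minus vehicle in HT F (vertical axis) against the same in WT F (horizontal axis) for the genes named by rule, with the olfactory bulb genes among them as squares, the 20 leading genes in orange and the line of equal differences dashed. Most points lie on the same side of 0 on both axes, and those bulb genes lie at -2.41 or below in HT F.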

How the data were processed

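The authors deposited a signal for each gene and library, which is the gene's reads over the size factor of that library. Salmon 0.11.2, R 3.6.0, DESeq2 1.19.11 and build GRCm38 are named, without role or order, per the submitters' processing notes. The annotation release is not given in the sources used here. All values (100%) were whole multiples of their column's 1-read value at a tolerance of 1e-06, so whole reads were recovered for the count tests. With limma 3.58.1 (R 4.3.3), a trended variance and a mean for each group were fitted to log2(value + 1) in all 60 libraries. A gene was kept where 5 or more libraries reached 10 (17781 of 18088), and differences of low genes are understated on this scale. P-values are two-sided and adjusted by Benjamini-Hochberg within each contrast, with 0.05 as the threshold. edgeR 4.0.16 and DESeq2 1.42.0 were run on the recovered reads as alternatives. The bulb covariates are the olfactory bulb list's mean log2 value and the log2 of its mean value. Of the 18088 identifiers, 18077 matched a symbol, with gene coordinates from GENCODE on GRCm38. Libraries of a group differed beyond sampling noise (chi-square per degree of freedom of 3.85 or more), so none was counted as a duplicate. The limma test of the comparison was checked on simulated counts, drawn without differences in tissue content between libraries. The other fits were not checked in this way. The named genes are Tbr1, the 10 in each direction with the smallest p, the 5 in each direction with the largest difference, 4 per list and 5 for the interaction, with a mean of at least 50 for those outside the lists. Some genes that this rule names are not reported here. Members and lists were chosen with earlier results of these data known.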

Additional observations from a re-analysis of the deposited data

Results flagged for a closer look

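In each group of 5 libraries, the named genes and list means were searched for a highest or lowest library whose gap to its neighbour passed Dixon's critical value, and 35 of 396 such sets of 5 did. Chance gives about 1 in 20. HT vehicle F replicate 1 was the library in 21 of the 35, and the part of its tissue content in them was not tested.

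In HT fluoxetine F, the libraries that stood apart were few. Replicate 4 was apart for Cdc25b (543.8 normalised reads) and Sort1 (17679), and in the list means of log2(value + 1) for astrocytes (12.32), inhibitory synapse (12.04) and potassium and sodium channels (11.88). Replicate 1 was apart for H2-Q6, a class I major histocompatibility gene (120.3), and Pla2g15 (801.6). Replicate 2 was apart for Gpc4 (482.6) and the water channel Aqp1 (40.95), replicate 3 for Map4k1 (32.93) and Txnl4b (422.7), and replicate 5 for Foxp2 (181.3) and Htr1f (56.53).

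HT vehicle F replicate 1 was the highest vehicle library, in normalised reads, for Dnmt3a (6629), Slc31a1 (1031), Trh (607.6), Th (2591), Clic6 (78.46), Sp9 (1307), Dlx1 (6531), Mdga1 (6435), Syt6 (4034), Gad1 (31441), Acan (604.9), Gdnf (50.18), Atf3 (413.3) and Fosl2 (5057). It was the lowest for Cdc25b (284.6), Unc5d (621.3), Crym (774.6), Htr2a (752.7), Nlgn1 (1241) and Npas2 (544.7), and in the excitatory synapse list mean (12.3). Replicate 5 of HT vehicle F was apart for the dopamine receptor Drd2 (123.9).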

How the results depend on the processing

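Called genes for fluoxetine against vehicle in HT F numbered 0 with other pseudocounts, filters, TMM rescaling, quantile normalization, the 10 compared libraries or the F libraries alone, edgeR and the bulb covariates. They numbered 521 with library quality weights and 388 with DESeq2, and 0 to 1027 when each library was left out in turn, with 1 without vehicle replicate 2 and 1027 without vehicle replicate 4. Chosen after seeing the data, DESeq2 gave 1658 without vehicle replicate 4 and 1 without vehicle replicate 1, and limma on the compared libraries gave 1 without vehicle replicate 4. The interaction had 2752 calls with quality weights, 2 with DESeq2 and 0 to 0 with libraries left out in turn. The cause of these changes was not tested. Same-numbered libraries of the groups correlated at 0.145, -0.012, 0.101, -0.0575 and 0.0501, so the numbers do not pair them, and with the replicate block 0 genes were called in the comparison and 0 in the interaction.

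Of 4627 values of 171 genes under alternatives, 24 values of 18 genes changed sign. With the bulb covariates these were Eomes (0.332), Ms4a15 (0.478), Doc2g (0.048), Dlx1 (0.0694), Pcna (0.0193), Crym (-0.00392), Reln (0.000199), Gdnf (0.114), Atf3 (0.0733), Fosl2 (0.187), Ctsd (-0.00266), Calr (0.0241), Slc17a7 (-0.0511) and Cux2 (-0.0269). Under quantile normalization they were Ctsb (-0.0174), Ctsd (-0.0323) and Hsp90b1 (-0.0542). Myrf was -0.037 with weights and -0.0845 without vehicle replicate 2, and Ermn was -0.0518 and -0.0955 in those settings. With libraries left out in turn, Myrf ran from -0.0845 to 0.229, Ermn from -0.0955 to 0.256, Pcna from -0.112 to 0.00314 (without vehicle replicate 1), and Calr from -0.0327 to 0.00766 (without fluoxetine replicate 3), with 0.00241 without vehicle replicate 5. Of 704 list medians, 16 moved by more than the spread between libraries. Depth of 26939207 reads or more per HT F library limits genes near the filter of 10, and the spread of the vehicle group limits the rest.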

Other observations

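A few genes outside the lists were noticed in the values and are given as such, with no test. Tmem181b-ps (GRCm38 chr17:6438524-6467022), a pseudogene with near-identical copies such as Tmem181a, among which reads can be shared, had 3997, 3987, 4178, 2734 and 3845 normalised reads in HT fluoxetine F, against 2045, 2849, 2133, 2759 and 2049 in HT vehicle F. Only fluoxetine replicate 4 lay within the vehicle range. Over the 60 libraries the values lay in 2 bands, 3443 to 4265 in 14 libraries and 1743 to 2871 in the other 46. The 14 were 4 of HT fluoxetine F, 3 of HT fluoxetine M, 4 of WT fluoxetine F and 3 of WT fluoxetine M, so 14 of 20 fluoxetine libraries and 0 of 40 vehicle or lithium libraries lay in the upper band.

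The neighbouring pseudogene Tmem181c-ps (chr17:6613753-6639790) followed the same libraries, at 81.4 to 116 normalised reads in the 14 and 14.5 to 61.5 in the other 46. In HT fluoxetine F it had 116, 111, 98.8, 58.2 and 92.8, against 50.2, 56.8, 34.5, 51.1 and 34.2 in HT vehicle F. Tmem181a itself had 3181 to 3641 in HT fluoxetine F and 2118 to 3399 in HT vehicle F, with overlap. Whether the pups of a band share a litter is not given by the labels, and drug and litter cannot be told apart here.

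Class I major histocompatibility genes, which present peptides to T cells and lie together on chromosome 17, stood highest in HT fluoxetine F replicate 1 among all 60 libraries. H2-Q7 had 131 there and at most 21.4 elsewhere, H2-Q6 had 120 and at most 23.4, H2-Q4 had 240.0 and at most 135, H2-K1 had 978 and at most 653, and H2-D1 had 1456 and at most 1209. B2m, their light chain on another chromosome, had 2077 there and at most 1943 elsewhere. These genes are close in sequence, so reads can be shared among them.

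HT vehicle F replicate 2, which stood apart on the second principal component, had the highest values of Fat2 and Cbln3, both genes of cerebellar granule cells. Fat2 had 108 normalised reads there and at most 58.8 in any other of the 60 libraries, and Cbln3 had 54.9 and at most 31.0. HT vehicle F replicate 1 had the highest Omp, the marker of olfactory sensory neurons, at 723, against 4.27 to 26.3 in HT fluoxetine F and 14.1 to 105 in the other HT vehicle F libraries. S100a5, another such marker, had 240.0 in that library, against 0 to 7.33 in HT fluoxetine F.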
